A study of Mus musculus with 9 samples.

Results

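Genes of the immunoglobulin heavy locus and of the lymphoid lineages were examined in RAW264.7 cells, a mouse macrophage line. The set held 8 genes of the 26146 in the deposited table: Ighm, Ighj3, Ighj4, Igkc, Cd79a, Cd79b, Pax5 and Lck. They were selected by name, and they had been chosen from levels in treated and untreated cells of these same libraries. Each difference from untreated cells is therefore given for these 8 genes as a description, with no test. Poly(A) RNA was sequenced in 9 libraries, 3 per group. The M libraries are titled as lipopolysaccharide (LPS) with an extract of a Traditional Chinese Medicine, and the ET libraries as LPS, a bacterial cell wall component that macrophages sense. Normal libraries are titled as normal cells and carry neither agent in their labels. The library names inside the labels give M and ET the other way round, so both groups are called here by their columns in the table, and which of them received the extract cannot be told apart. Dose, time and extract preparation are not given in the sources used here. All groups come from 1 cell line, and nothing in the labels says that replicates came from separate cultures, so p-values measure only the spread between these libraries.

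The immunoglobulin heavy locus holds arrays of variable, diversity and joining segments upstream of the constant regions. B cells cut and join 1 segment of each kind, and the joined exon is spliced to the constant region of Ighm, the gene of the mu heavy chain. The unrearranged locus can also be transcribed, and such transcripts are called germline or sterile. Heavy chain and kappa or lambda light chain form the antibody, which sits on the B cell surface with Cd79a and Cd79b, the signalling pair of the B cell receptor. Pax5 is the transcription factor that commits cells to the B lineage, and Lck is the Src family kinase that starts signalling from the T cell receptor.

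The joining segments Ighj1 to Ighj4 are shown because 2 of them are members of the set and all 4 lie in the same stretch upstream of Ighm. They lie on the minus strand of chromosome 12 and are given 5′ to 3′ from GENCODE M21 transcripts on GRCm38, at chr12:113429781-113429833, chr12:113429468-113429515, chr12:113429085-113429132 and chr12:113428514-113428567. Capitals mark the stretch that encodes the conserved tryptophan and the glycine motif after it, which is a feature of every functional heavy chain joining segment.
Ighj1: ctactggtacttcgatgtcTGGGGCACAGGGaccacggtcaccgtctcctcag
Ighj2: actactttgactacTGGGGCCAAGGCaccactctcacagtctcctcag
Ighj3: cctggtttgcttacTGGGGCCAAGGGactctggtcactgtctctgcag
Ighj4: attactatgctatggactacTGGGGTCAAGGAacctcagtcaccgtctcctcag
The table's row for Ighj2 spans 100 bases, where the segment itself spans 48. The segments resemble one another from the capitals to the 3′ end and are shorter than a sequencing read, so the division of counts among them is uncertain.

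The libraries held 55039858 to 76242718 counts in total. A count of 0 was read as fewer than 3 counts per library, a level of 0.0376 to 0.0557 CPM (counts scaled to library size with TMM factors). Such floors cover counting error only. A gene was tested if it had at least 10 counts in at least 3 of the 9 libraries, which 16253 genes passed, all 8 members among them. "Called" means an adjusted p under 0.05 in edgeR's quasi-likelihood test with Benjamini-Hochberg adjustment over all genes tested. M and ET lay close together on the first principal component (85.2% of the variance), far from Normal. On the second (3.83%), ET replicate 3 stood at -9.825, between the other ET libraries (-16.67 and -18.05) and the M libraries (13.74 to 14.81). Of 13 macrophage genes tested, 6 were called higher and 6 lower in M than in Normal, and 7 higher and 5 lower in ET than in Normal. The shares of all genes tested were 31.3% higher and 27% lower in M, and 31.6% and 26.9% in ET. Between M and ET, 0 of the 13 were called higher and 6 lower in M, against 2.79% and 2.73% of all genes tested. Csf1r was among those 6, and its call there was lost in 12 of 18 alternative fits. Csf1r, the receptor for macrophage colony-stimulating factor, fell to 1110 ± 18.0 CPM in M and 1207 ± 16.3 CPM in ET, against 1911 ± 51.0 CPM in Normal (SD, n = 3 each). Cd14, a coreceptor for LPS, rose to 1905 ± 54.3 CPM in M and 1810 ± 99.3 CPM in ET, against 359.1 ± 7.49 CPM in Normal.

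Ighm was the only member with an abundant transcript, and it was far lower in both treated groups than in Normal. Its row lies at chr12:113418558-113422730 on the minus strand. It had 3540, 3360 and 3590 counts in M, 3179, 2669 and 3151 counts in ET, and 28454, 37780 and 28205 counts in Normal. No library of M or ET came near the Normal libraries, and every M library was above every ET library in CPM. The mean was 60.2 ± 1.36 CPM in M, 51.3 ± 1.51 CPM in ET and 466.9 ± 15.3 CPM in Normal (SD, n = 3 each). That is 7.75-fold lower in M and 9.11-fold lower in ET than in Normal. On the deposited per-length scale, Ighm averaged 29.3 ± 0.716 FPKM in M, 24.9 ± 0.826 FPKM in ET and 239.7 ± 9.35 FPKM in Normal. By mean FPKM it ranked 1818 of the 16253 genes in M, 2143 in ET and 166 in Normal. In bulk RNA, fewer cells with a transcript and less of it per cell cannot be told apart.

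**Figure D1:**
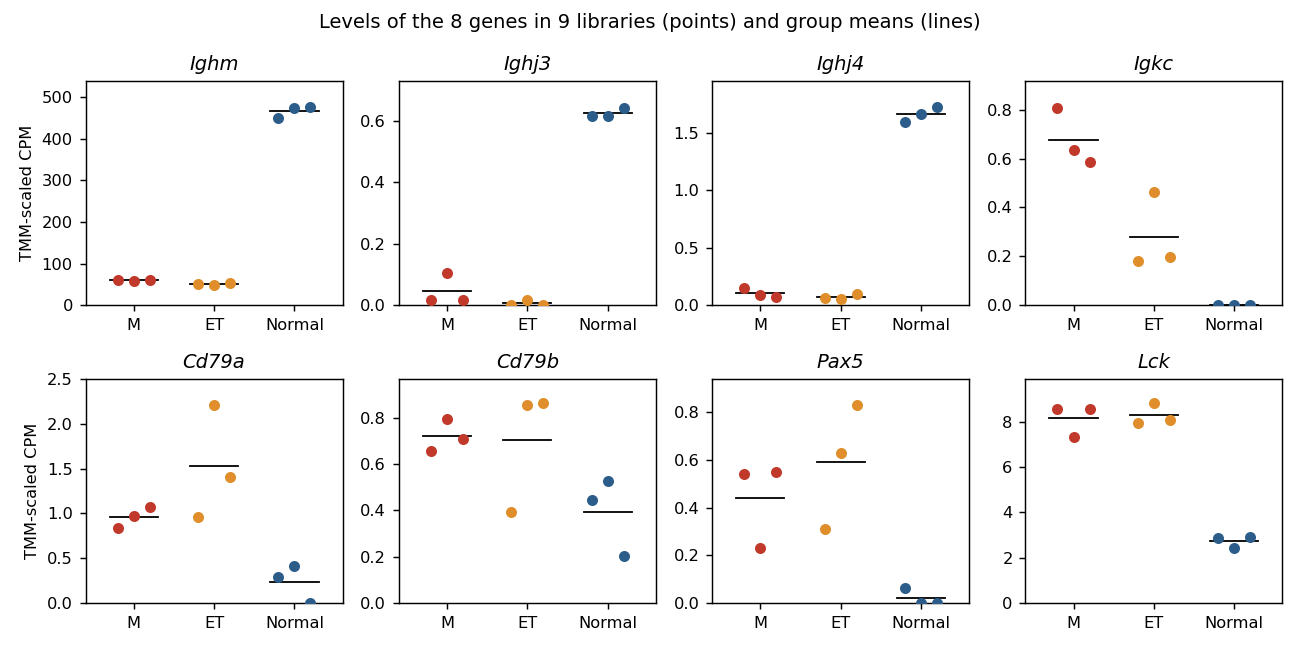
Levels of the 8 genes by library, each panel with its own linear axis in TMM-scaled CPM that starts at 0, with M, ET and Normal from left to right. Points are libraries (n = 3 per group) and lines are group means. Ighm, Ighj3 and Ighj4 are high in Normal, Igkc is at 0 in all 3 Normal libraries, and Lck is near 8 CPM in M and ET.

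The joining segments Ighj3 and Ighj4 were close to their detection floor in treated cells. Ighj3 at chr12:113429085-113429132 had 1, 6 and 1 counts in M, 0, 1 and 0 counts in ET, and 39, 49 and 38 counts in Normal. Of its 8 counts in M, 6 came from replicate 2. The ratio of summed counts of M to Normal, scaled to library size, was 0.0737, and that of ET to Normal was 0.00915. Both ratios are descriptions, and the second rests on 1 count in ET. Ighj4 at chr12:113428514-113428567 had 9, 5 and 4 counts in M, 4, 3 and 6 counts in ET, and 101, 133 and 102 counts in Normal. Its mean was 16.2-fold lower in M and 22.6-fold lower in ET than in Normal. M and ET libraries overlapped for both segments, and no Normal library overlapped with them. Per length, Ighj3 averaged 0.746 ± 0.961 FPKM in M, 0.0820 ± 0.142 FPKM in ET and 12.4 ± 0.397 FPKM in Normal. Ighj4 averaged 1.61 ± 0.765 FPKM in M, 1.07 ± 0.457 FPKM in ET and 29.7 ± 1.42 FPKM in Normal.

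The other rows of the locus that passed the count filter were lower in treated cells too. Of 6 further heavy chain rows, 3 passed the count filter, and all 3 were called lower in M and in ET than in Normal. Against this, 27% of all genes tested were called lower in M than in Normal and 26.9% in ET than in Normal. Ighj2 passed the filter only through its Normal libraries, so its calls against Normal are a description. Counts of Ighj1 and Ighj2 may also not be separate from those of the members Ighj3 and Ighj4. Ighj1, the joining segment farthest upstream, had 26, 36 and 36 counts in M, 30, 33 and 21 counts in ET, and 484, 689 and 447 counts in Normal. Its log2 change was -3.81 ± 0.22 (SE) in M and -4.04 ± 0.23 in ET against Normal (edgeR adjusted p = 1.114e-08 and 7.589e-09). Ighj2 had 3, 3 and 8 counts in M, 6, 2 and 1 counts in ET, and 44, 100 and 52 counts in Normal. Ighd, the delta constant region downstream of Ighm, had 37, 24 and 19 counts in M, 19, 27 and 28 counts in ET, and 221, 321 and 278 counts in Normal (adjusted p = 9.061e-07 for M and 7.052e-07 for ET by edgeR). None of the 3 was called between M and ET by edgeR (adjusted p = 0.6852, 0.7183 and 0.8948). In Normal, the order of the joining segments per length was Ighj1 at 145.2 FPKM, Ighj4 at 29.7 FPKM, Ighj3 at 12.4 FPKM and Ighj2 at 9.01 FPKM. Ighj3 and Ighj2 lay close together in that order, with SDs of 0.397 and 2.86 FPKM.

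Upstream of the joining segments, rows held 4 counts or fewer per library. The diversity segment Ighd4-1, 7797 bases upstream of the Ighm row, had 0, 0 and 1 counts in M, 1, 0 and 1 counts in ET, and 4 counts in each Normal library. Its row spans 11 bases, so per length these counts gave 0.141 ± 0.244 FPKM in M, 0.134 ± 0.117 FPKM in ET and 4.57 ± 0.801 FPKM in Normal, the last being below the 9.01 FPKM of Ighj2. Ighd6-1, farther upstream, had 1 count in 1 Normal library and 0 in all others. The list of heavy chain variable segments held 0 rows, so none was analysed here. Ighg2c, the constant region of the IgG2c heavy chain farther downstream, had 10 counts in M replicate 1 and 12 in ET replicate 3, and 0 counts in the other 7 libraries.

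**Figure D2:**
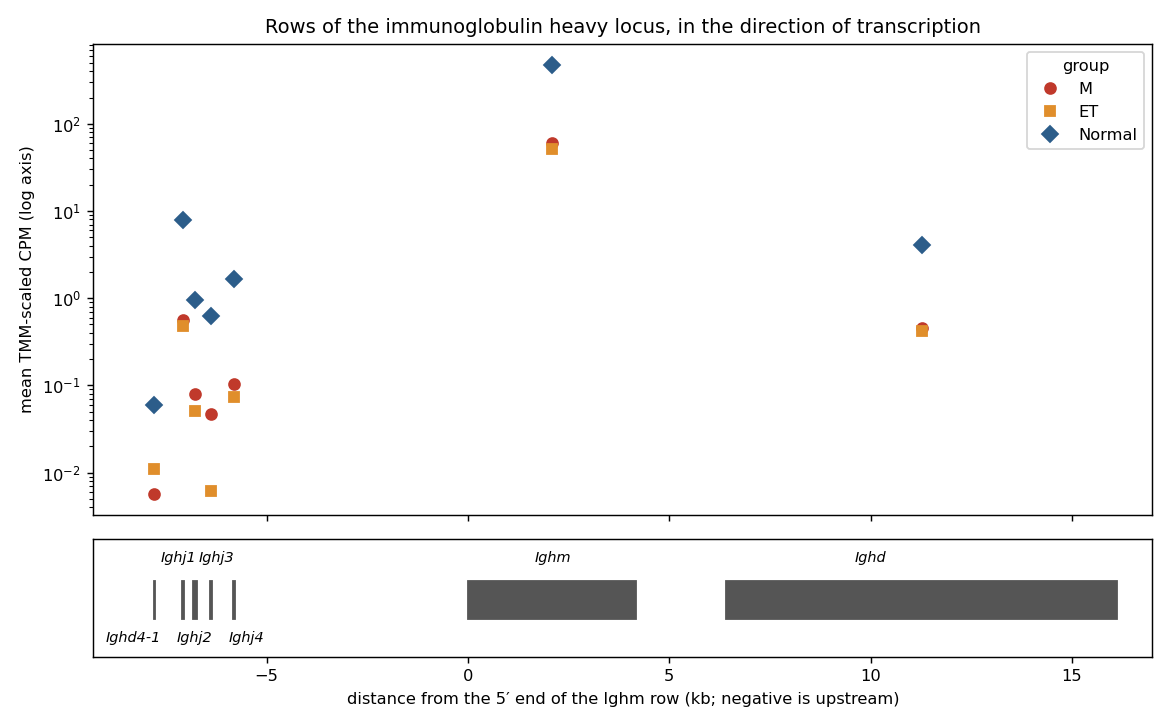
Mean level of 7 heavy chain rows (log axis, TMM-scaled CPM; n = 3 per group) by the position of each row's centre, in kilobases from the 5′ end of the Ighm row, with a map of the rows underneath. Normal (diamonds) lies above M (circles) and ET (squares) at every row drawn, and Ighd4-1 rests on 4 counts or fewer per library. Ighd6-1 and Ighg2c are not drawn. Ighg2c went the other way, with 10 counts in M replicate 1, 12 in ET replicate 3 and 0 in Normal.

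Set against Ighm in the same library, the joining segments were also lower in treated cells, so their difference from Normal was larger than that of the constant region. Ighj1 to Ighj4 together had 11.0, 14.9 and 13.7 counts per 1000 Ighm counts in M, 12.6, 14.6 and 8.89 in ET, and 23.5, 25.7 and 22.7 in Normal. Every Normal library was above every M and ET library, and M and ET overlapped. These ratios are a description, since Ighm, Ighj3 and Ighj4 were chosen from the same contrast. Ighd gave 10.5, 7.14 and 5.29 counts per 1000 Ighm counts in M, 5.98, 10.1 and 8.89 in ET, and 7.77, 8.50 and 9.86 in Normal, and here all 3 groups overlapped.

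**Figure D3:**
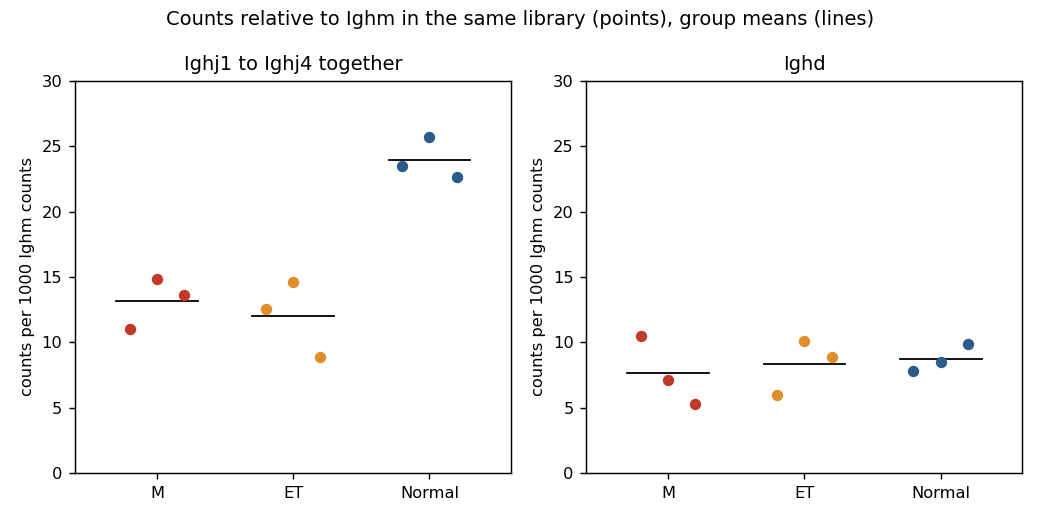
Counts of Ighj1 to Ighj4 together (left) and of Ighd (right) per 1000 Ighm counts in the same library, on linear axes from 0. Points are libraries and lines are means of 3. The joining segments lie between 8.89 and 14.9 in M and ET and between 22.7 and 25.7 in Normal, while the Ighd ratios of the 3 groups overlap.

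Light chain RNA had the opposite pattern at a low level. Igkc, the constant region of the kappa light chain at chr6:70726435-70726966 on the plus strand, had 48, 36 and 34 counts in M, 11, 25 and 12 counts in ET, and 0 counts in all 3 Normal libraries. All treated libraries held reads, and M lay above ET in every library. Against the floor of 3 counts per library, Igkc was at least 14.9-fold higher in M and at least 6.21-fold higher in ET than in Normal. It averaged 0.676 ± 0.117 CPM in M and 0.281 ± 0.159 CPM in ET (SD, n = 3 each), so it stayed a rare transcript there too. No other light chain row passed the count filter. Among those 4 rows, the kappa joining segment Igkj5 had 2, 4 and 4 counts in M, 2 in each ET library and 0 in Normal. Iglc2, a lambda constant region, had 0, 5 and 9 counts in M, 0, 4 and 0 counts in ET, and 0 in Normal.

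Of the signalling pair of the B cell receptor, Cd79a had the larger difference from Normal. Cd79a, at chr7:24897381-24902197 on the plus strand, had 50, 55 and 62 counts in M, 59, 119 and 85 counts in ET, and 18, 33 and 0 counts in Normal. Every treated library was above every Normal library, and the ET libraries spread widely. Its mean was 4.12-fold higher in M and 6.56-fold higher in ET than in Normal. Cd79b, at chr11:106311341-106314762 on the minus strand, had 39, 45 and 41 counts in M, 24, 46 and 52 counts in ET, and 28, 42 and 12 counts in Normal. M lay above Normal in CPM, whereas ET replicate 1 lay below 2 of the 3 Normal libraries. Mean levels of Cd79b were 0.719 ± 0.0692 CPM in M, 0.703 ± 0.269 CPM in ET and 0.391 ± 0.168 CPM in Normal (SD, n = 3 each), so the ET and Normal groups did not separate beyond their spread.

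Pax5, at chr4:44524757-44710487 on the minus strand, was detected in treated cells at a very low level. It had 32, 13 and 32 counts in M, 19, 34 and 50 counts in ET, and 4, 0 and 0 counts in Normal. The ratio of summed counts to Normal, scaled to library size, was 22.3 in M and 29.7 in ET. Both ratios are descriptions that rest on 4 counts in Normal. Per length this was 0.0449 ± 0.0184 FPKM in M, 0.0606 ± 0.0274 FPKM in ET and 0.00227 ± 0.00393 FPKM in Normal, which made Pax5 one of the lowest genes tested, at rank 15584 of 16253 in M. Ebf1, the transcription factor that acts with Pax5 in early B cells, had 30, 25 and 50 counts in M, 16, 33 and 41 counts in ET, and 0 in all Normal libraries. It was called higher in M and in ET than in Normal by edgeR, at least 13.3-fold in M and at least 11.5-fold in ET. Ebf1 passed the count filter only through the treated libraries, so these calls are a description. On log2(FPKM + 1) with limma, at these levels, neither call held (adjusted p = 0.0554 and 0.0913).

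Lck was higher in treated cells, with little spread between libraries. At chr4:129548344-129558391 on the minus strand, it had 509, 416 and 499 counts in M, 486, 477 and 488 counts in ET, and 181, 195 and 171 counts in Normal. The treated libraries overlapped with each other and not with Normal. Its mean was 8.17 ± 0.719 CPM in M, 8.30 ± 0.486 CPM in ET and 2.73 ± 0.249 CPM in Normal (SD, n = 3 each), or 2.99-fold higher in M and 3.04-fold higher in ET than in Normal. Per length, Lck averaged 2.55 FPKM in M, 2.59 FPKM in ET and 0.891 FPKM in Normal. Lyn, a Src family kinase of myeloid cells, averaged 57.1 FPKM in M, 63.4 FPKM in ET and 35.1 FPKM in Normal, well above Lck in each group. The row for Lck ends short of the distal start site of the gene in GENCODE M21, so only the proximal start site lies inside it.

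RefSeq promoter windows on GRCm38.p6, which run from 250 bases before to 50 after a start site, were held for 3 of the 8 genes, with 1 window each for Pax5 and Cd79a and 2 for Lck. The windows of Lck are shown because the table's row takes in the proximal start and not the distal one, so the values above do not cover the whole gene. They lie on the minus strand at chr4:129573592-129573891 for the distal and chr4:129558323-129558622 for the proximal start, and are given 5′ to 3′ with no base marked.
Lck distal promoter: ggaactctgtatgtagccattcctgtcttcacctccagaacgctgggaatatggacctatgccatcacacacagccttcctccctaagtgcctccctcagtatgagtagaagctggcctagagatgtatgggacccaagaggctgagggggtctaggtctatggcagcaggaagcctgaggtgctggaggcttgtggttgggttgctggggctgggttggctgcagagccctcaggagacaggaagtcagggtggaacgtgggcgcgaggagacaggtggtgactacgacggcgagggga
Lck proximal promoter: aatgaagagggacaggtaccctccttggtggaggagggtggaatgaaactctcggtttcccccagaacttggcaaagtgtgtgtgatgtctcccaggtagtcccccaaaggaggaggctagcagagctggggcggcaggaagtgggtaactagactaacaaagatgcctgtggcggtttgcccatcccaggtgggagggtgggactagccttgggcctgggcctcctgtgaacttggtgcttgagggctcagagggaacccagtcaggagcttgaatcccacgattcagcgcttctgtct

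Over the whole set, 3 genes were lower and 5 higher in every M library than in every Normal library. For ET against Normal, 3 were lower and 4 higher in every library, Cd79b being the exception. Libraries did not overlap in 65.5% of all genes tested for M against Normal and in 64.1% for ET against Normal, and 31.3% and 31.6% of all genes were called higher. Nothing is read from the members' counts here, since these contrasts chose them.

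The difference between M and ET was not used to choose the genes, although Ighj3 and Ighj4 had been named for their low level in ET, whose libraries enter this contrast. Of the 8 members, 1 was called, Ighm, which was higher in M. Of all genes tested, 2.79% were called higher and 2.73% lower in M than in ET. Its log2 difference was 0.23 ± 0.041 (SE; 95% interval 0.13 to 0.33; edgeR adjusted p = 0.006345). The 3 M libraries held 59.6, 59.2 and 61.8 CPM and the 3 ET libraries 52.0, 49.5 and 52.3 CPM. Ighm stayed called in all 18 alternative fits, with adjusted p between 6.88e-06 and 0.0391.

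Igkc did not pass between M and ET, with a log2 difference of 1.27 ± 0.59 (SE; 95% interval -0.17 to 2.71; edgeR adjusted p = 0.2666), although every M library was above every ET library. Libraries of M and ET did not overlap for 2 of the 8 members, Ighm and Igkc, and for 24.5% of all genes tested. Limma on log2(FPKM + 1) called Igkc (log2 difference 0.56, adjusted p = 0.0273). Ighj3, with 8 counts in M against 1 in ET, had an adjusted p of 0.2614 by edgeR. Without M replicate 2, which held 6 of those counts, its log2 difference was 1.29 instead of 2.63. Ighj4 (0.47), Cd79a (-0.67), Cd79b (0.03), Pax5 (-0.42) and Lck (-0.02), all log2 differences of M minus ET, had edgeR adjusted p between 0.6349 and 0.9817. Intervals were narrow for Lck alone among these, at -0.32 to 0.27 on the log2 scale, while that of Cd79a ran from -2.22 to 0.89 and that of Pax5 from -2.21 to 1.37.

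**Figure D4:**
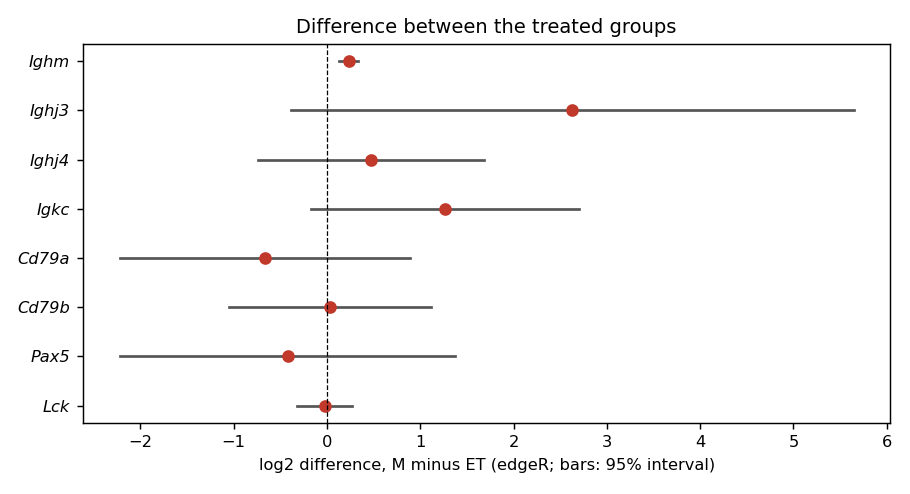
Log2 difference of M minus ET for the 8 genes from the edgeR fit (horizontal axis), with 95% intervals as bars and 0 as the dashed line. Only the interval of Ighm (0.13 to 0.33) excludes 0, and the genes with few counts have intervals that span 2 log2 units or more.

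Genes around the locus and genes of like profile were named by rule. The 4 nearest tested genes past the 3′ end of the locus were Tedc1, Crip1, Crip2 and Mta1, between 120.8 and 148.1 kb away. Crip1, a cysteine-rich LIM protein, averaged 2.68 ± 0.373 CPM in M, 2.66 ± 0.287 CPM in ET and 13.2 ± 0.776 CPM in Normal, and was called lower in M and in ET than in Normal (edgeR adjusted p = 1.532e-08 and 1.496e-08). Crip2, next to it, was called higher in both treated groups than in Normal, with 0.843 ± 0.286 CPM in M, 0.894 ± 0.433 CPM in ET and 0.0936 ± 0.0931 CPM in Normal (edgeR adjusted p = 0.003203 and 0.002672). Tedc1 fell by 0.61 in M and 0.43 in ET, and Mta1, a chromatin remodelling subunit, fell by 0.34 in M and 0.27 in ET against Normal on the log2 scale, and each of these falls was called. On the 5′ side the nearest were Gm9517, Gm7019, Gm9256 and Gm9260, between 149.8 and 2502 kb away. Gm9260 averaged 5.18 CPM in M, 5.40 CPM in ET and 0.760 CPM in Normal.

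Likeness to Ighm was measured as the distance between centred profiles of log2(CPM + 0.5) over the 9 libraries. The nearest 5 genes were Ighj1 (distance 0.436), Acss1, Dipk2a, Myadml2 and Rubcnl (0.652). Ighj1, Acss1 and Myadml2 were so low in treated cells that the added 0.5 CPM shrinks their falls, so their nearness depends on it. In the edgeR fit, Ighj1 fell more than Ighm against Normal. Its log2 change was -3.81 in M and -4.04 in ET, and that of Ighm was -2.96 and -3.19. Acss1, a mitochondrial acetyl-CoA synthetase, averaged 1.39 CPM in M, 0.896 CPM in ET and 13.8 CPM in Normal. Dipk2a averaged 60.9 CPM in M, 57.0 CPM in ET and 398.7 CPM in Normal. For Lck the nearest were Psen2, a presenilin, and Cdk14, a cyclin-dependent kinase (distances 0.196 and 0.216). Psen2 averaged 56.7 CPM in M, 56.7 CPM in ET and 21.1 CPM in Normal. The remaining members have so few counts that the added 0.5 CPM flattens their profiles too. Their nearest 2 were Vars2 and Ciita for Ighj3, Serinc3 and Fxyd2 for Ighj4, Lhx2 and Gm47015 for Igkc, Akap3 and Hoxa10 for Cd79a, Gm16199 and Zfp599 for Cd79b, and Il34 and Optn for Pax5.

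Markers that define B and T cells averaged below 1 FPKM in every group where they had a row, and those not tested had few counts. Of 9 B cell markers, 7 had a row and 4 passed the count filter, and 3 of those 4 are members of the set. Those 4, Cd79a, Cd79b, Pax5 and Ebf1, had higher mean levels in M and in ET than in Normal, though ET and Normal libraries overlapped for Cd79b. Cd22, an inhibitory B cell lectin, had no more than 5 counts in any library, and Fcrla, a B cell Fc receptor-like protein, no more than 11. Of 9 T cell markers, 4 had a row and 1 was tested. Cd3d, a chain of the T cell receptor complex, had no more than 7 counts in any library, and Zap70, the kinase that Lck activates, had 4 counts in 1 Normal library and 0 in the others. Lat, the adaptor downstream of Zap70, was the tested T cell marker, at 1.51 ± 0.385 CPM in M, 2.86 ± 0.518 CPM in ET and 0.345 ± 0.117 CPM in Normal (edgeR adjusted p = 6.79e-05 in M and 2.632e-06 in ET against Normal). For plasma cells, 2 of 5 markers were tested, and Jchain, which was not, had no more than 4 counts. Prdm1, which drives plasma cell differentiation, averaged 1.24 ± 0.338 CPM in M, 0.705 ± 0.0671 CPM in ET and 0.0167 ± 0.0290 CPM in Normal. Sdc1, the other tested marker, was more abundant and did not rise. It averaged 13.1 ± 1.54 CPM in M, 17.1 ± 2.24 CPM in ET and 17 ± 0.946 CPM in Normal. Sdc1 was called lower in M (edgeR adjusted p = 0.01315), a call lost without M replicate 3, and not in ET (0.9616).

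Markers of some other cells differed between treated cells and Normal, in both directions. Of 6 dendritic cell genes tested, 4 were called higher and 1 lower in each treated group than in Normal. Their median log2 change was 2.36 in M and 2.40 in ET. Of all genes tested, 31.3% were called higher and 27% lower in M, and 31.6% and 26.9% in ET. The lower one was Siglech, a lectin of plasmacytoid dendritic cells. It had 0, 0 and 4 counts in M, 0 counts in every ET library, and 645, 932 and 683 counts in Normal. Among the higher ones, Itgax rose 6.16-fold in M and 9.04-fold in ET, and Xcr1 5.65-fold and 7.08-fold. The fibroblast list was split: of 5 tested genes, 2 were called higher and 1 lower in M than in Normal, and 2 higher and 0 lower in ET than in Normal (median log2 change -0.73 and -0.84). Lum and Dcn, proteoglycans of the matrix, were the higher ones. Lum had 835, 847 and 573 counts in M, 475, 468 and 476 counts in ET, and 0 in Normal. Dcn had 189, 185 and 147 counts in M, 62, 95 and 109 counts in ET, and 0 in Normal. Pdgfrb, a receptor for platelet-derived growth factor, was the lower one in M (log2 change -1.53, edgeR adjusted p = 0.03297; -1.13 and 0.09614 in ET), a call lost without M replicate 2, M replicate 3 or Normal replicate 2 (adjusted p up to 0.225) and with the replicate block. The collagen Col1a2 did not pass (log2 change -1.38 in M and -0.84 in ET, edgeR adjusted p = 0.1302 and 0.3443), nor did Col3a1 (-0.73 and -0.97, edgeR adjusted p = 0.6423 and 0.5333). Col1a1, a defining collagen, had 0 counts in every M library, 0, 14 and 11 counts in ET, and 0, 6 and 0 counts in Normal. Summed over the list, FPKM ran from 4.18 to 6.16 in M, from 3.13 to 3.60 in ET and from 0.0941 to 0.243 in Normal, of which Lum alone gave 4.85 FPKM in M and 3.04 FPKM in ET on average. The dendritic cell list summed to 298.4 to 303.6 FPKM in M, 246.3 to 267.1 FPKM in ET and 70.1 to 73.0 FPKM in Normal, of which Bst2 alone gave 299.7, 253.6 and 67.8 FPKM on average. Their part in the differences of the 8 genes was not tested.

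**Figure D5:**
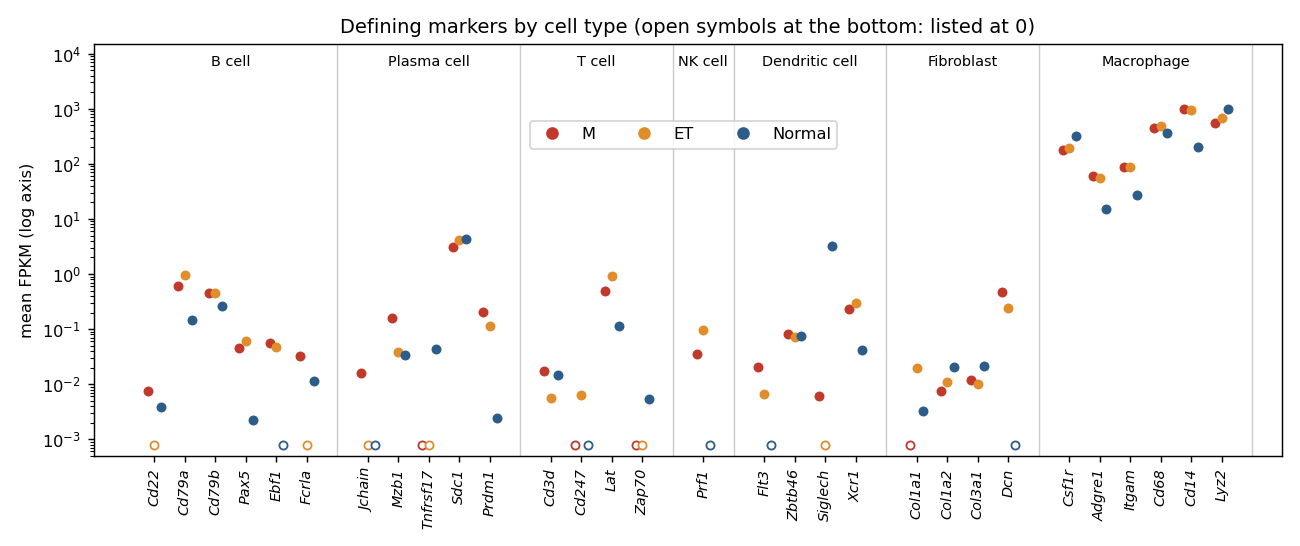
Mean FPKM (log axis, n = 3 per group) of defining markers of 7 cell types. Filled points are group means, and open points at the bottom stand for means of 0. Macrophage markers lie between 15.4 and 1009 FPKM, and B and T cell markers lie below 1 FPKM.

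Lists of genes that work beside the members were counted without the members, with medians of all genes tested at -0.01 for M against ET, 0.01 for M against Normal and 0.02 for ET against Normal (log2). Of all genes tested, 31.3% were called higher and 27% lower in M than in Normal, 31.6% higher and 26.9% lower in ET than in Normal, and 2.79% higher and 2.73% lower in M than in ET. The counts of each list stand beside these shares, and no list is called particular from them. Among genes of the surrogate light chain and of V(D)J recombination, 12 of 15 rows were tested. Of these, 5 were called higher and 4 lower in M than in Normal (median log2 change -0.01), and 2 higher and 5 lower in ET than in Normal (median -0.08). The recombinase row Rag2 had 2 counts in 1 Normal library and 0 elsewhere. Hmgb2, a DNA-bending protein of chromatin and of the recombination complex, averaged 210.7 ± 6.72 CPM in M, 208.1 ± 7.33 CPM in ET and 568.2 ± 2.87 CPM in Normal (edgeR adjusted p = 4.78e-12 and 4.563e-12). Xrcc5, the larger Ku subunit of end joining, rose to 38.6 ± 1.71 CPM in M and 34.5 ± 2.64 CPM in ET, against 15.3 ± 1.16 CPM in Normal.

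B-lineage transcription factors moved in both directions. Of 14 tested, 6 were higher and 6 lower in M than in Normal (median log2 change 0.04), and 6 were higher and 7 lower in ET than in Normal (median -0.19). Spi1, which is also the master regulator of macrophages, fell to 213 ± 11.5 CPM in M and 217.6 ± 11.6 CPM in ET, against 282.2 ± 8.70 CPM in Normal. Tcf3, of the E proteins, fell by 0.74 in M and 0.62 in ET on the log2 scale, and Id2, an inhibitor of E proteins, rose by 2.24 in M and 2.06 in ET. Between M and ET, Ikzf1, an Ikaros family factor, was higher in M at 191.6 ± 4.90 CPM against 163.9 ± 6.44 CPM in ET (edgeR adjusted p = 0.005494). Tcf4 was the other gene called there (log2 difference 0.23, edgeR adjusted p = 0.01286, named after its values were seen), and its call was lost without M replicate 3 (0.068) and without either ET replicate 1 or ET replicate 2.

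Of 13 rows for surface genes of B cells, 8 were tested. Of these, 4 were higher and 3 lower in each treated group than in Normal (median log2 change 0.21 in M and 0.03 in ET). Cd72, an inhibitory coreceptor, averaged 297.7 ± 5.26 CPM in M, 279.8 ± 5.41 CPM in ET and 232.7 ± 11.5 CPM in Normal. Tnfrsf13b, a receptor for the survival factors BAFF and APRIL, rose to 24.7 ± 2.11 CPM in M and 20.3 ± 0.468 CPM in ET, against 8.60 ± 0.4997 CPM in Normal. Cxcr5, the chemokine receptor of follicular B cells, was the surface gene called between M and ET, and is named after its values were seen. It had 1213, 1221 and 1115 counts in M, 761, 620 and 787 counts in ET, and 145, 184 and 129 counts in Normal (M minus ET 0.72 on the log2 scale, edgeR adjusted p = 0.0006175). Of 6 plasma cell genes tested, 2 were higher and 3 lower in M, and 2 higher and 2 lower in ET, than in Normal (median log2 change 0.19 and 0.44). Xbp1, the secretory regulator of plasma cells, fell to 197.4 ± 0.373 CPM in M and 187.4 ± 7.56 CPM in ET, against 327.8 ± 11.4 CPM in Normal.

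All 22 genes of the list that carries the signal of the B cell receptor inside the cell passed the count filter. Of these, 11 were higher and 6 lower in M than in Normal (median log2 change 0.12), and 9 were higher and 6 lower in ET than in Normal (median 0.03). Pik3ap1, an adaptor that links receptors to PI3 kinase, rose to 397.6 ± 14.3 CPM in M and 411.4 ± 15.99 CPM in ET, against 115 ± 2.82 CPM in Normal. Ptpn6, the phosphatase SHP-1, fell to 383.2 ± 5.86 CPM in M and 373.4 ± 12.1 CPM in ET, against 578.9 ± 10.6 CPM in Normal. Between M and ET, 1 was called higher in M, Ptprc, and 4 were called lower, Lyn, Fcgr2b and Plcg2 among them (named after their values were seen, apart from Lyn). The calls of these named genes were lost without ET replicate 2, where adjusted p by edgeR was 0.146 for Lyn.

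T cell genes gave few tested members, with 5 of 13 rows past the filter. In M and in ET, 3 were higher and 2 lower than in Normal (median log2 change 1.62 and 1.64). Cd5, a surface inhibitor of antigen receptor signalling on T cells and some B cells, had 3156, 2827 and 2764 counts in M, 2922, 2743 and 2568 counts in ET, and 20, 27 and 0 counts in Normal. At 50.2 ± 2.82 CPM in M, 47.1 ± 4.19 CPM in ET and 0.218 ± 0.189 CPM in Normal, it had a higher per-length level in treated cells than Lck, 9.34 FPKM in M and 8.76 FPKM in ET. Gata3, a T helper transcription factor, rose by 1.62 in M and 1.64 in ET, whereas the costimulatory receptors Cd28 and Icos fell by 1.53 and 1.72 in M and by 1.10 and 1.34 in ET, all against Normal on the log2 scale. Of 12 tested genes of T cell receptor signalling, 6 were higher and 3 lower in M, and 6 higher and 2 lower in ET, than in Normal (median log2 change 0.19 and 0.22). Csk, the kinase that restrains Lck and other Src kinases, fell to 241.8 ± 5.00 CPM in M and 246.9 ± 8.65 CPM in ET, against 369.3 ± 4.99 CPM in Normal. Of 5 Src family kinases tested besides Lck, 2 were higher and 2 lower in each treated group than in Normal. Lyn was among the higher ones and Fgr among the lower ones. Of the NK cell list, 1 of 3 rows was tested, Eomes, and it was called in no comparison.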

How the data were processed

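RNA of the RAW264.7 line was selected on oligo(dT) and sequenced in 9 libraries with a kit that marks strand, per the labels' protocols. Reads were trimmed with cutadapt 1.9, aligned with HISAT2 2.2.1 and assembled with StringTie 2.1.6, per the submitters' processing notes. The deposited counts are whole numbers per gene and the deposited FPKM values were made by the authors. The counting tool, strand setting and build are not given in the sources used here, so reads of overlapping or antisense genes cannot be separated. Start and end were identical to GENCODE M21 (GRCm38) in 86.8% of rows, and in all members but Lck.

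Counts of genes with at least 10 counts in at least 3 libraries were fitted with edgeR 4.0.16 (TMM factors, quasi-likelihood, 1 fit of 3 groups, no block) in R 4.3.3, with Benjamini-Hochberg adjustment at 0.05. The script was tested on simulated data. Alternatives were other scalings, DESeq2 1.42.0, limma 3.58.1 on log2 FPKM, other filters, a replicate block, fits of 6 libraries and leaving out each library. Named genes are the members, up to 4 tested genes of highest FPKM per list, the nearest neighbours and profiles, and the defining markers. Rag2, Igkj5, Ighd4-1, Ighd6-1, Ighg2c, Cxcr5, Tcf4, Ptprc, Fcgr2b and Plcg2 fall outside this rule and were named after their values were seen. Members, markers and lists were chosen with earlier results of these data known. Some genes of the lists and markers are not reported here.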

Additional observations from a re-analysis of the deposited data

How the results depend on the processing

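Ighm was called higher in M than in ET in every one of 18 alternatives. Igkc moved past the threshold with limma on log2(FPKM + 1) (log2 difference 0.56, adjusted p = 0.0273) and on log2(FPKM + 0.1) (1.22, adjusted p = 0.0485), and in none of its other 15 alternatives; the cause was not tested. When each library was left out in turn, the uncalled M minus ET differences of Cd79b (-0.256 to 0.224) and Lck (-0.0606 to 0.0484) changed sign. The number of genes called between M and ET was 897, against 1689 with DESeq2 and 400 (without M replicate 3) to 1602 (without ET replicate 3) when a library was left out; the cause was not tested. With the replicate block 691 genes were called between M and ET, 9276 between M and Normal and 9297 between ET and Normal, and no call of a member changed. Deviations of samples that share a number had correlations between -0.0537 and 0.0215, and those of samples with different numbers between -0.0215 and 0.0657. With 3 libraries per group, these values cannot settle whether a shared number marks a pairing. Counts over the gene lists stayed within 1.5 times in 648 of 702 cases. A filter on FPKM leaves out Igkc, Cd79a, Cd79b and Pax5, whose counts of 119 or fewer per library limit what could be detected.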
